A study of Mus musculus with 6 samples.

Results

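The 48 genes described here encode cyclins, replication factors and mitotic proteins and were taken as a named list out of 55487 gene identifiers in the table. By role, 25 act at the start of or during DNA synthesis (S-phase members), 21 act in G2 or mitosis (mitotic members), and the G1 cyclin genes Ccnd1 and Ccnd2 stand in neither class. All 48 were found in the table, and the 45 whose mean over the libraries reached 1 FPKM were tested. FPKM are fragment counts divided by transcript length and by the mapped fragments in that library, so levels of different genes can be set side by side.

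A dividing cell first makes D-type cyclins, whose kinases release E2F factors, and E2F then drives the genes for origin licensing, the replicative helicase, the polymerases and nucleotide supply. Genes of mitosis are held back at first by the DREAM complex and switched on later through B-MYB and FOXM1. Their promoters often carry elements called CHR and CCAAT boxes. In the small intestine, division takes place mainly in the crypts, where stem cells and their transit-amplifying progeny renew the epithelium, while the absorptive cells of the villi no longer divide.

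RNA of the terminal ileum came from C57BL/6 mice at postnatal day 9, with 3 NEC libraries and 3 control libraries. NEC, necrotizing enterocolitis, is an inflammatory bowel disease of preterm infants, modelled here by gavage with hyperosmolar formula, hypoxia (5% O2, 10 min, 3 times per day, 4 days) and lipopolysaccharide by mouth (4 mg/kg daily, postnatal days 6 and 7). No genetic change is named for either group, and the control samples carry this treatment text too, so how the controls were fed and handled is not known from the labels. Whether each library came from its own animal is not stated, so p-values reflect only the spread among these libraries, which may be technical in part.

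Estimated depth was 15.2 to 18.7 M fragments per library. NEC 1 stood apart: the 7SL RNA gene Rn7s1 took 42.7% of its total FPKM against 27.3% to 32.2% in the others, and 13461 genes reached 1 FPKM in it against 14541 to 16702. Xist, made from the inactive X chromosome, was at 130 and 139 FPKM in NEC 2 and 3 and at 0.084 to 0.221 FPKM in NEC 1 and the controls, while the Y-linked gene Ddx3y was at 6.78 to 9.89 FPKM in the latter 4 libraries. Of the ileal marker genes, Fabp6 was at 0 to 10.4 FPKM and Slc10a2 at 1.01 to 2.30 FPKM over the 6 libraries. The groups overlapped, and these bile acid genes were low. Fgf15, an ileal hormone gene, was at 5.55 to 5.97 FPKM in control and at 0.0821 to 1.35 FPKM in NEC and fell (log2 change -2.14, limma adjusted p = 0.00519). The epithelium markers summed to 1360 to 1630 FPKM in NEC and 1270 to 1380 FPKM in control, but did not move together. Krt19 was at 38.4% of control (limma adjusted p = 0.00822) and Vil1 at 168% (limma adjusted p = 0.00548). Of the 6 not called, Krt8 lay above control in every NEC library and Cdx2 below it.

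The classes differ in the letters of their promoters, which were searched because many members of a class were lower together. Windows of 300 bases, from 250 before to 50 after each start, came from RefSeq on GRCm38.p6 and were at hand for 38 of the 48 genes. Each was searched on both strands for the CHR letters TTTGAA or TTCGAA, the CCAAT box letters CCAAT, and the E2F letters TTTCCCGC, TTTCGCGC, TTTGCCGC or TTTGGCGC. The E2F words can overlap each other on opposite strands, and a match is a description of letters only. The 5 stretches below run to base 30 after the start and show 3 mitotic genes that fell and 2 helicase genes, with matches on either strand in capitals. They are Ccnb2 (chr9:70421525-70421804, minus strand), Cdk1 (chr10:69352883-69353162, minus strand), Cdc20 (chr4:118437314-118437593, minus strand), Mcm5 (chr8:75109259-75109538, plus strand) and Mcm6 (chr1:128359676-128359955, minus strand).
Ccnb2: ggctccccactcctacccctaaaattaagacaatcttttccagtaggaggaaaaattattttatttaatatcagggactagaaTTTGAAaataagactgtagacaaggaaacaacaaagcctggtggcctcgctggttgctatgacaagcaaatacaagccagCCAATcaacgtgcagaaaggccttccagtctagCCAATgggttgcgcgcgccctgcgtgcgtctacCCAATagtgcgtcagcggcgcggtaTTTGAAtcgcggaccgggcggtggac
Cdk1: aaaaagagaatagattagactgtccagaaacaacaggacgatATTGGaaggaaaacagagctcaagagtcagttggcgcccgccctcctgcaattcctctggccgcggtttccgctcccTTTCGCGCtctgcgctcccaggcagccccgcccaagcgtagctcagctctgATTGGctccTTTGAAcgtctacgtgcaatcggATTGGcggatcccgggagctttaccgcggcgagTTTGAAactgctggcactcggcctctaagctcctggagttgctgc
Cdc20: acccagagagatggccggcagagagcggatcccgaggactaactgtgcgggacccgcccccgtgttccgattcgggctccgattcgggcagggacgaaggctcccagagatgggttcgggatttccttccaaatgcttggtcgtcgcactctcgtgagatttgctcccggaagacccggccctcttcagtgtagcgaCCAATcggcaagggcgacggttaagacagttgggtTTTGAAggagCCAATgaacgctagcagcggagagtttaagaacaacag
Mcm5: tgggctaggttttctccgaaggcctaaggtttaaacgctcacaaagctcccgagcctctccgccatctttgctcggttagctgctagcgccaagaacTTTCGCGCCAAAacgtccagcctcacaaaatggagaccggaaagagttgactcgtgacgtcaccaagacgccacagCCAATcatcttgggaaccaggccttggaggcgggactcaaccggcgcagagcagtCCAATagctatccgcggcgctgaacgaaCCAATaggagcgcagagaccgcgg
Mcm6: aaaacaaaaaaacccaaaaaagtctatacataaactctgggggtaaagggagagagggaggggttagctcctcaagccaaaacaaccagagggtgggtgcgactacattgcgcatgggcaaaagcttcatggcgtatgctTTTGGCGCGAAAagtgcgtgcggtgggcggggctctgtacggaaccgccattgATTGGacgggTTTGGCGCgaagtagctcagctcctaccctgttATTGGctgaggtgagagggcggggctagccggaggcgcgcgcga

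Counted from the start, with minus for bases before it, the CHR letters of Ccnb2 began at -167 and 5, the latter behind CCAAT letters at -87, -54 and -21. In Cdc20 they began at -18 between CCAAT letters at -53 and -8, and in Cdk1 at -71 and -15. Cdk1 was the only mitotic member with E2F letters, at -131. Mcm5 carried overlapping E2F letters at -153 and -149, and Mcm6 carried them at -110, -106 and -47, and neither held CHR letters in its window.

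Over the classes, CHR letters stood in 14 of 17 mitotic members (82.4%) and 5 of 21 S-phase members (23.8%), beside 21.7% of all 27025 genes with a window. E2F letters stood in 1 of 17 mitotic members and in 10 of 21 S-phase members (47.6%), beside 2.6% of all genes. CCAAT letters were in 16 of 17 mitotic members (94.1%), 13 of 21 S-phase members (61.9%) and 41.1% of all genes. In 13 of the 14 mitotic members with CHR letters the match nearest the start began within 50 bases of it. The median position of these nearest matches was 3.0, and farther matches in the same windows were left out of it. Among genes of both phases outside the list, CHR letters stood in 29 of 41 other mitotic genes (70.7%) and 7 of 30 other S-phase genes (23.3%), and E2F letters in 4 of 41 and 11 of 30 (36.7%). CCAAT letters stood in 27 of 41 other mitotic genes (65.9%), a smaller share than among the mitotic members, and in 16 of 30 other S-phase genes (53.3%). No test was made of these shares.

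**Figure D1:**
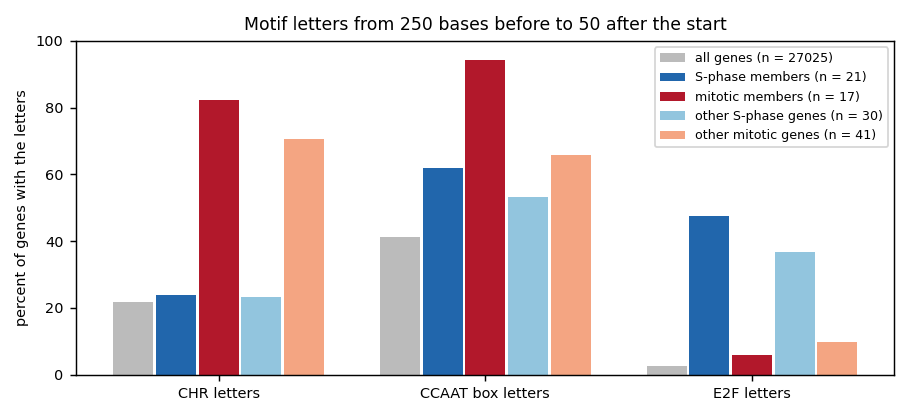
Percent of genes (vertical axis) whose 300-base RefSeq promoter window holds the CHR, CCAAT box or E2F letters on either strand, for all genes, S-phase and mitotic members, and other genes of both phases. CHR letters stood in 82.4% of mitotic members and 23.8% of S-phase members, and E2F letters in 47.6% of S-phase members and 2.6% of all genes.

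Of the 45 tested cell cycle genes, 43 had a negative log2 change in NEC ileum, and fewer passed the test. With limma on log2(FPKM + 1) and Benjamini-Hochberg adjustment over 15806 genes, 20 of 45 fell (44.4%) and E2f2 rose. Over all tested genes 30.6% were called lower and 7.69% higher, so lower calls were frequent throughout the table. The median log2 change of the 45 was -0.63, beside -0.26 over all tested genes. In 35 of 45 (77.8%) every NEC library lay below every control library, beside 47.3% of all tested genes. Only E2f2 had every NEC library above every control, beside 11.8% of all tested genes.

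The summed level of the 48 genes was 98.0, 180 and 203 FPKM in NEC 1, 2 and 3 and 261, 270 and 274 FPKM in control 1, 2 and 3. The controls lay close together, the NEC libraries spread widely, and NEC 1 was the lowest. In 41 of 45 tested members (91.1%) NEC 1 was the lowest of the 6 libraries, beside 56% of all tested genes. Without NEC 1, 26 members were called lower (57.8%, beside 33.2% of all tested genes) and the median log2 change was -0.40, beside -0.20 over all genes. That fit set NEC 2 and 3, with Xist at 130 and 139 FPKM, against controls at 0.084 to 0.221 FPKM. In every fit without NEC 1, here and for single genes below, Xist status and group thus cannot be told apart.

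The calls depended on single libraries. With any 1 control left out, limma called none of the 45 lower at an adjusted p under 0.05, while 18 to 24 had an unadjusted p under 0.05 and the adjusted p of the 20 lower calls lay between 0.0513 and 0.152. The median log2 change of the members was then -0.63, -0.59 and -0.62 without control 1, 2 and 3, much as with all libraries. The share of all tested genes called lower also dropped, to 6.98%, 6.35% and 13% in that order. Without NEC 2, 7 of 45 were called lower (15.6%), beside 18.5% of all tested genes. Under TMM scaling, which brings the median log2 change of all genes from -0.26 to 0.00, the median of the members was -0.36, and 6 of 45 (13.3%) were called lower, beside 14.2% of all tested genes lower and 16.7% higher. Those 6 were Ccnb2, Cdk1, Aurkb, Bub1b, Cenpf and Rrm1.

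**Figure D2:**
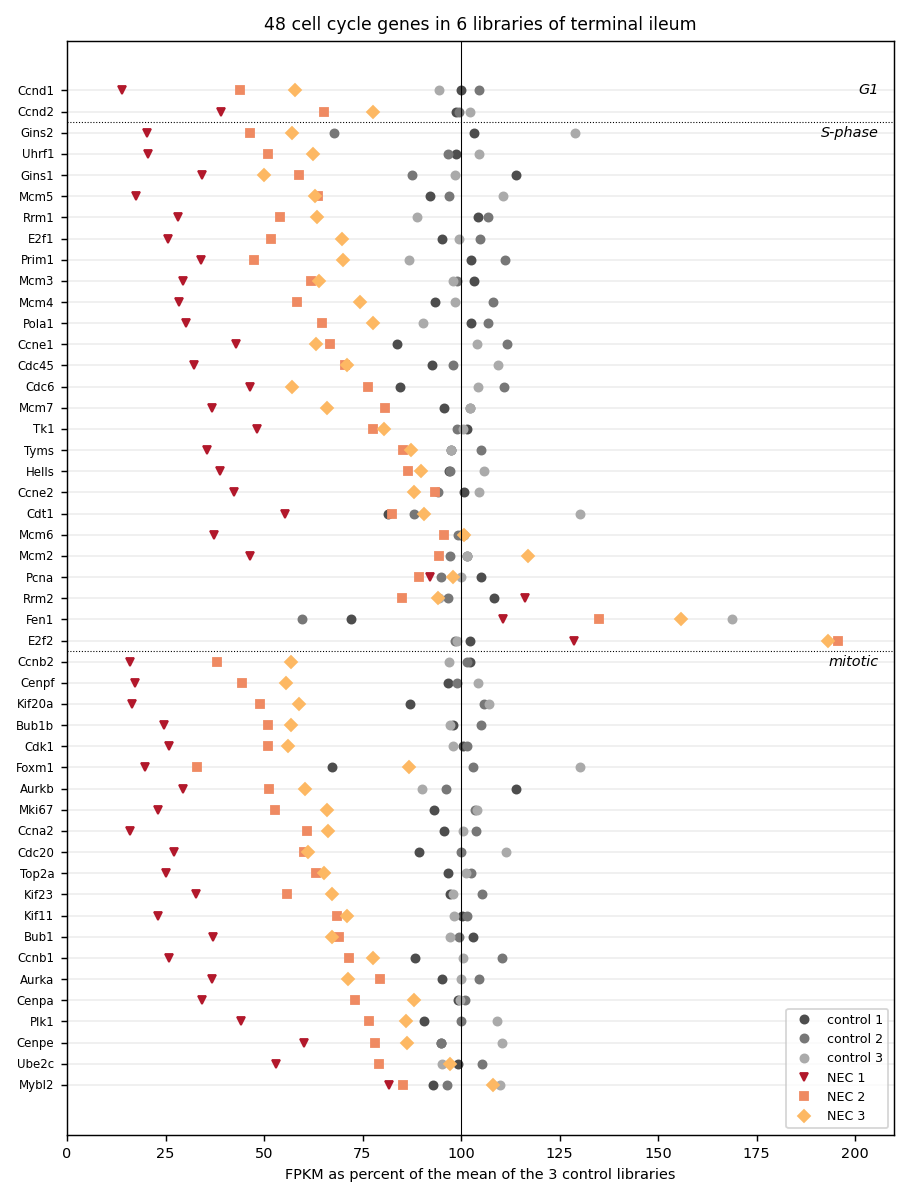
FPKM of each of the 48 genes in each library as percent of the mean of the 3 controls (horizontal axis), grouped into G1, S-phase and mitotic genes. Mitotic genes sit left of 100 in NEC 1, which was the lowest of the 6 libraries for all 21, while E2f2 sits at 129, 196 and 193 percent in NEC 1, 2 and 3.

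The G1 cyclin genes fell. Ccnd1, which encodes cyclin D1, the partner of the kinases that begin RB phosphorylation (chromosome 7, 144929931 to 144939925), was at 1.49, 4.69 and 6.20 FPKM in NEC 1, 2 and 3 and at 10.7, 11.2 and 10.1 FPKM in control 1, 2 and 3. All NEC libraries were below all controls and NEC 1 was the farthest below. The log2 change was -1.32 (SE 0.37, limma adjusted p = 0.0327). Ccnd2, which encodes cyclin D2, was at 13.7 ± 4.46 FPKM in NEC and 22.7 ± 0.421 FPKM in control (SD, n = 3 each; log2 change -0.74, SE 0.23, limma adjusted p = 0.0422). The Ccnd1 gene shares 1100 exon bases with LTO1 on the opposite strand, which was at 1.47 to 2.22 FPKM in all libraries. In NEC 1 LTO1 was at 1.64 FPKM, above Ccnd1. The strand setting of the counting is not known, so the Ccnd1 value is uncertain, and any part of LTO1 reads in it was not tested.

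The E2F genes went in opposite directions. E2f1, an activator of replication genes (chromosome 2, 154559407 to 154569892), was at 0.643, 1.3 and 1.75 FPKM in NEC 1, 2 and 3 and at 2.39, 2.63 and 2.50 FPKM in control 1, 2 and 3, a log2 change of -0.68 (SE 0.19, limma adjusted p = 0.0343). E2f2, a related activator (chromosome 4, 136172394 to 136196057), was at 4.90, 7.46 and 7.36 FPKM in NEC and at 3.90, 3.75 and 3.77 FPKM in control. The groups did not overlap for either gene, with E2f1 below and E2f2 above control in every NEC library. The E2f2 level in NEC was 173% of control, a log2 change of 0.64 (SE 0.16, limma adjusted p = 0.0231). It was positive under each scaling tried, at 0.92 with TMM (adjusted p = 0.00394) and 0.52 per summed epithelium marker (adjusted p = 0.0895). The E2f2 call was lost without NEC 2 (adjusted p = 0.0652) and without control 1, 2 or 3 (adjusted p = 0.0747, 0.0800 and 0.0698).

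The E-type cyclin genes, whose products start S phase with their kinase, were low. Ccne1 fell from 1.47 ± 0.215 FPKM in control to 0.846 ± 0.190 FPKM in NEC (SD, n = 3 each; log2 change -0.42, SE 0.13, limma adjusted p = 0.0469). The Ccne1 call was lost without any 1 of the 6 libraries (adjusted p = 0.0599 to 0.152), with smaller pseudocounts and under every other scaling tried, with a log2 change of -0.24 under TMM and -0.03 under quantile normalization. Its paralog Ccne2 was at 0.638, 1.41 and 1.33 FPKM in NEC and 1.42 to 1.58 FPKM in control and was not called (log2 change -0.26, limma adjusted p = 0.259). Its exons share 609 bases with Ints8 on the other strand, which was at 4.17 to 5.15 FPKM in NEC and 8.06 to 8.62 FPKM in control. Any part of those reads in the Ccne2 value was not tested.

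The licensing factors load the helicase on origins. Cdt1 was not called, and was at 2.35, 3.51 and 3.85 FPKM in NEC and 3.46, 3.74 and 5.53 FPKM in control, with overlapping groups. Cdc6 was under the filter, at 0.209 to 0.343 FPKM in NEC and 0.379 to 0.498 FPKM in control.

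The 6 genes of the MCM2-7 helicase, whose products work as a single ring, did not show equal differences. Mcm3 fell from 3.91 ± 0.111 to 2.03 ± 0.756 FPKM (SD, n = 3 each; log2 change -0.73, SE 0.20, limma adjusted p = 0.0297). Mcm4 fell from 9.19 ± 0.680 to 4.94 ± 2.15 FPKM (log2 change -0.85, SE 0.27, limma adjusted p = 0.0489). Mcm5 was at 0.985, 3.61 and 3.57 FPKM in NEC 1, 2 and 3 and at 5.22, 5.50 and 6.28 FPKM in control, with no overlap but a wide spread (log2 change -0.94, SE 0.33, limma adjusted p = 0.0608). Mcm7 had the values 2.34, 5.12 and 4.19 FPKM in NEC and 6.07, 6.49 and 6.49 FPKM in control (log2 change -0.63, limma adjusted p = 0.0594). The Mcm7 value is uncertain, since Mcm7 shares 321 exon bases with Ap4m1 on the other strand, at 3.93 to 5.69 FPKM. Without NEC 1, both Mcm5 and Mcm7 were called lower (adjusted p = 0.00932 and 0.0255).

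For the other helicase genes only NEC 1 was low. Mcm6, the helicase gene with the highest control level (chromosome 1, 128331590 to 128359664), was at 5.05, 12.9 and 13.6 FPKM in NEC 1, 2 and 3 and at 13.5, 13.4 and 13.6 FPKM in control. NEC 2 and 3 lay at 95.6% and 101% of the control mean, and the log2 change was -0.44 with NEC 1 and -0.02 without it. Mcm2 was at 1.97, 4.00 and 4.96 FPKM in NEC and at 4.30, 4.12 and 4.30 FPKM in control. NEC 3 was the highest of the 6 libraries for Mcm2, and its log2 change was -0.23 with NEC 1 but 0.06 without it and 0.03 under TMM scaling. Neither gene was called, at limma adjusted p = 0.317 for Mcm6 and 0.478 for Mcm2.

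The helicase partners had low levels. Cdc45, which joins the MCM ring to form the active helicase, was at 0.658, 1.44 and 1.45 FPKM in NEC and 1.89, 2.00 and 2.23 FPKM in control (log2 change -0.50, limma adjusted p = 0.0633). Its value is uncertain too, as it shares 209 exon bases with Ufd1 on the other strand, at 4.25 to 5.73 FPKM. Of the GINS subunits, Gins1 was at 0.413 to 0.711 FPKM in NEC and 1.06 to 1.38 FPKM in control, and Gins2 at 0.246 to 0.692 FPKM in NEC and 0.821 to 1.56 FPKM in control. Both were under the filter with no overlap between the groups. Gins2 shares 2758 exon bases with Gse1 on the opposite strand, which was at 7.09 to 9.77 FPKM.

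At the replication fork, the primase gene fell and the clamp gene was not called. Prim1, which encodes the primase subunit that makes RNA primers, was at 0.823, 1.15 and 1.70 FPKM in NEC and 2.49, 2.70 and 2.11 FPKM in control, a log2 change of -0.64 (SE 0.17, limma adjusted p = 0.0277). Pola1, the catalytic subunit of the polymerase bound to primase, was at 1.67 ± 0.715 FPKM in NEC and 2.91 ± 0.247 FPKM in control (SD, n = 3 each; log2 change -0.59, limma adjusted p = 0.0679).

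Pcna, the sliding clamp of the replicative polymerases (chromosome 2, 132249162 to 132253314), was at 13.0, 12.6 and 13.8 FPKM in NEC and 14.8, 13.4 and 14.1 FPKM in control. The groups overlapped, NEC 1 was at 92.4% of the control mean, and the log2 change was -0.10 (SE 0.09, limma adjusted p = 0.401) and 0.23 under TMM scaling. The pseudogene Pcna-ps2 on chromosome 19 matches Pcna at 99.2% identity over 781 bases and was at 16.8 to 20.6 FPKM, so the counting could split reads between them. Summed, the pair was at 31.3 ± 1.61 FPKM in NEC and 34.2 ± 0.753 FPKM in control (SD, n = 3 each), 91.5% of control. Fen1, a nuclease that trims the ends of lagging-strand fragments, was at 2.06, 2.51 and 2.90 FPKM in NEC and 1.34, 1.11 and 3.14 FPKM in control. Control 3 was the highest library, and without it Fen1 was called higher in NEC (log2 change 0.64, limma adjusted p = 0.0482) instead of not called (0.34, adjusted p = 0.327).

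Among the genes of nucleotide supply, a single subunit of ribonucleotide reductase was called. Rrm1, the large subunit (chromosome 7, 102441695 to 102469771), was at 1.40, 2.68 and 3.15 FPKM in NEC 1, 2 and 3 and at 5.17, 5.30 and 4.41 FPKM in control. Rrm2, the small subunit (chromosome 12, 24708241 to 24714146), was at 6.32, 4.62 and 5.12 FPKM in NEC and 5.90, 5.26 and 5.14 FPKM in control. Every NEC library was below every control for Rrm1, while for Rrm2 the groups overlapped and NEC 1 was the highest library. The log2 change was -0.84 for Rrm1 (SE 0.21, limma adjusted p = 0.0247, and 0.0481 under TMM scaling). For Rrm2 it was -0.03 (SE 0.13, limma adjusted p = 0.883) and 0.27 under TMM scaling, and the difference between the subunits was not tested. Tyms and Tk1, which make thymidine nucleotides, were at 1.08 ± 0.456 against 1.56 ± 0.0726 FPKM and at 1.3 ± 0.338 against 1.89 ± 0.0239 FPKM in NEC and control (SD, n = 3 each), and neither was called (limma adjusted p = 0.195 and 0.0913).

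Of the chromatin genes of S phase, Uhrf1, which guides maintenance DNA methylation behind the fork, was at 1.56, 3.90 and 4.77 FPKM in NEC and 7.54, 7.38 and 7.98 FPKM in control. It fell by 1.05 on the log2 scale (SE 0.29, limma adjusted p = 0.0313), with no overlap. Hells, a chromatin remodeller of the same process, was at 0.986, 2.20 and 2.28 FPKM in NEC and 2.46, 2.47 and 2.69 FPKM in control and was not called (log2 change -0.36, limma adjusted p = 0.198).

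**Figure D3:**
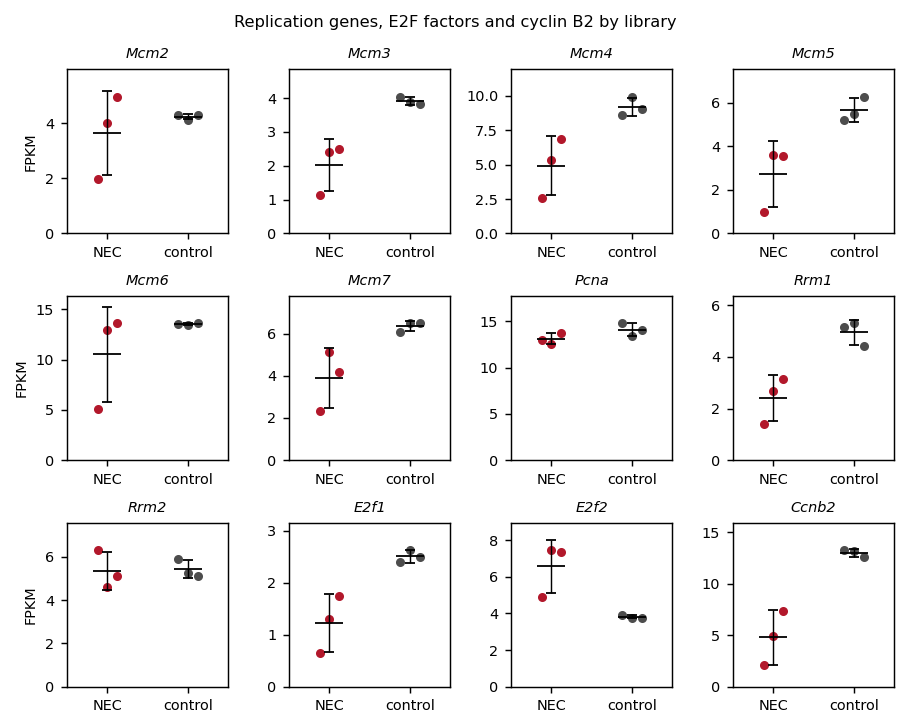
FPKM (vertical axes, starting at 0) in the 3 NEC and 3 control libraries for the helicase genes, Pcna, the ribonucleotide reductase subunits, E2f1, E2f2 and Ccnb2, with the mean and SD. Ccnb2 and Rrm1 show every NEC point below every control, Pcna and Rrm2 overlap, E2f2 lies above control, and Mcm6 is low in NEC 1 alone, at 5.05 FPKM.

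The mitotic genes began with the drivers of mitotic entry. Ccnb2, which encodes a B-type cyclin, had the lowest log2 change of the 45 (chromosome 9, 70407692 to 70421547). It was at 2.08, 4.96 and 7.39 FPKM in NEC 1, 2 and 3 and at 13.3, 13.2 and 12.6 FPKM in control 1, 2 and 3. Every NEC library lay below the lowest control, and the NEC mean was 37.0% of control. The log2 change was -1.39 (SE 0.34, limma adjusted p = 0.0226) and -1.10 under TMM scaling (adjusted p = 0.0374). Without NEC 2 the Ccnb2 call was lost (adjusted p = 0.0522).

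Cdk1, the kinase that B-type cyclins activate (chromosome 10, 69335146 to 69352938), was at 1.21, 2.38 and 2.62 FPKM in NEC and 4.69, 4.74 and 4.58 FPKM in control. The controls lay close together, and the NEC libraries stood at 25.9%, 51.0% and 56.2% of their mean. The log2 change was -0.92 (SE 0.19, limma adjusted p = 0.0162), the smallest adjusted p of the mitotic members, and without 1 control it was 0.0515 to 0.0624. Ccnb1, the other B-type cyclin gene, was at 0.602, 1.66 and 1.80 FPKM in NEC and 2.05, 2.56 and 2.33 FPKM in control, and was not called (log2 change -0.54, limma adjusted p = 0.10). It has 5 pseudogenes of at least 95% identity over at least 200 bases. Ccnb1-ps, a near copy at 99.2%, had the higher level, at 1.74, 3.85 and 3.62 FPKM in NEC and 4.72, 4.64 and 5.27 FPKM in control. Ccnb1 and its copies together were at 6.89 ± 2.81 FPKM in NEC and 12.1 ± 0.647 FPKM in control (SD, n = 3 each), 57.0% of control.

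Ccna2, a cyclin of S phase and G2, was at 1.48, 5.67 and 6.17 FPKM in NEC and 8.90, 9.67 and 9.36 FPKM in control. The groups did not overlap, NEC 1 was at 15.9% of the control mean, and the log2 change of -1.07 (SE 0.39) missed the threshold (limma adjusted p = 0.0691) but passed it without NEC 1 (-0.58, adjusted p = 0.00459). Ccna2 shares 510 exon bases with Exosc9 on the other strand, at 2.47 to 3.72 FPKM, so its value is uncertain. The factors that switch on mitotic genes were not called. Foxm1 was at 0.447, 0.743 and 1.96 FPKM in NEC and 1.52, 2.33 and 2.94 FPKM in control (log2 change -0.72, limma adjusted p = 0.0956). Mybl2, which encodes B-MYB, was at 1.39, 1.45 and 1.84 FPKM in NEC and 1.58, 1.64 and 1.87 FPKM in control (log2 change -0.08, limma adjusted p = 0.627, and 0.13 under TMM scaling). For both factors NEC 3 lay among the controls.

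Of the proliferation marker Mki67, a protein coating mitotic chromosomes, 4.67, 10.7 and 13.4 FPKM were measured in NEC and 18.9, 21 and 21.1 FPKM in control. Top2a, the topoisomerase that untangles sister DNA, was at 3.78, 9.56 and 9.84 FPKM in NEC and 14.6, 15.5 and 15.3 FPKM in control. These were the mitotic genes with the highest control levels, and both fell, by 1.11 (SE 0.33, limma adjusted p = 0.0376) and by 0.98 (SE 0.31, limma adjusted p = 0.0463) on the log2 scale.

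Among the mitotic kinases, Aurkb fell while Aurka and Plk1 were not called. Aurkb, the kinase of the chromosomal passenger complex (chromosome 11, 69045647 to 69051664), was at 0.987, 1.72 and 2.02 FPKM in NEC and 3.82, 3.22 and 3.02 FPKM in control. Its log2 change was -0.78 (SE 0.18, limma adjusted p = 0.0198) with no overlap between groups. Aurka, the kinase of the spindle poles, was at 1.29, 2.78 and 2.50 FPKM in NEC and 3.33, 3.66 and 3.5 FPKM in control (log2 change -0.53, limma adjusted p = 0.0732). Plk1 had 68.9% of its control level in NEC (log2 change -0.43, limma adjusted p = 0.110). Without NEC 1, Aurka was called lower too (adjusted p = 0.0329). The difference between Aurka and Aurkb was not tested.

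The spindle checkpoint genes Bub1b and Bub1 fell, as did Cdc20. Bub1b, which encodes the checkpoint kinase-like protein BUBR1 (chromosome 2, 118598211 to 118641591), was at 1.86, 3.84 and 4.29 FPKM in NEC and 7.38, 7.93 and 7.32 FPKM in control. The NEC mean was 44.2% of control, a log2 change of -1.03 (SE 0.23, limma adjusted p = 0.0187, and 0.0304 under TMM scaling). Bub1, the kinase that recruits checkpoint proteins to kinetochores, fell by 0.59 on the log2 scale (SE 0.17, limma adjusted p = 0.0359). Cdc20, the target of the checkpoint and activator of the anaphase-promoting complex (chromosome 4, 118432901 to 118437352), was at 3.08, 6.80 and 6.92 FPKM in NEC and 10.1, 11.3 and 12.6 FPKM in control. It fell by 0.96 (SE 0.26, limma adjusted p = 0.0309). Ube2c, the ubiquitin-conjugating enzyme of the same complex, was at 2.15, 3.21 and 3.95 FPKM in NEC and 4.03, 4.28 and 3.86 FPKM in control. NEC 3 reached the controls for Ube2c and the gene was not called (log2 change -0.33, limma adjusted p = 0.175).

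Among the centromere genes only Cenpf was called. Cenpf, a large protein of the outer kinetochore, was at 0.613, 1.59 and 1.99 FPKM in NEC and 3.46, 3.54 and 3.73 FPKM in control, a log2 change of -0.98 (SE 0.23, limma adjusted p = 0.0205, and 0.0369 under TMM scaling). Cenpa, the histone variant that marks centromeres, was at 0.957, 2.04 and 2.46 FPKM in NEC and 2.77, 2.82 and 2.78 FPKM in control (log2 change -0.47, limma adjusted p = 0.122). Cenpe, a kinetochore motor, was at 1.80, 2.34 and 2.58 FPKM in NEC and 2.84, 2.84 and 3.30 FPKM in control (log2 change -0.31, limma adjusted p = 0.0999). NEC lay below control in every library for these genes, by less for Cenpa and Cenpe.

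The kinesin genes of cytokinesis fell. Kif20a was at 0.586, 1.75 and 2.10 FPKM in NEC and 3.11, 3.78 and 3.82 FPKM in control (log2 change -0.94, SE 0.25, limma adjusted p = 0.0300). Kif23, a subunit of the complex that bundles the central spindle, was at 0.933, 1.60 and 1.92 FPKM in NEC and 2.78, 3.01 and 2.80 FPKM in control (log2 change -0.66, SE 0.17, limma adjusted p = 0.0248). Kif20a shares 1271 exon bases with Cdc23 on the other strand, at 2.29 to 3.29 FPKM in NEC and 4.29 to 4.84 FPKM in control, so its value is uncertain. Kif11, the motor that pushes the spindle poles apart, was at 1.55, 4.59 and 4.77 FPKM in NEC and 6.73, 6.82 and 6.59 FPKM in control. Its groups did not overlap, and it was called lower without NEC 1 (adjusted p = 0.00643) but not with it (log2 change -0.83, limma adjusted p = 0.0739).

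By class, 11 of 21 mitotic members fell (52.4%) and 7 of 22 tested S-phase members (31.8%), beside 30.6% of all tested genes. The S-phase share was close to that of all genes. The median log2 change was -0.78 for mitotic members and -0.43 for S-phase members, and the median NEC level was 51.1% and 65.0% of control. Every NEC library lay below every control in 18 of 21 mitotic members (85.7%) and 15 of 22 S-phase members (68.2%), beside 47.3% of all tested genes. The control levels of the classes were alike, with medians of 3.58 FPKM for mitotic and 3.86 FPKM for S-phase members. Without NEC 2 these calls numbered 5 and 2, beside 18.5% of all tested genes. With TMM scaling they numbered 5 (23.8%) and 1 (4.55%), beside 14.2%. Without any 1 control there were none, with 11 to 12 and 5 to 10 at an unadjusted p under 0.05 in limma.

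Both classes were also compared within each library. The median S-phase member stood at 37.1%, 79.1% and 79.0% of its control mean in NEC 1, 2 and 3, and the median mitotic member at 26.0%, 60.9% and 67.0%. Over all tested genes those medians were 69.7%, 81.3% and 84.4%. In NEC 2 and 3 the median of the S-phase members was thus near that of all genes and the mitotic median under it. In NEC 1 both were far under it. The median of the other S-phase genes, outside the list, was under that of all genes in each NEC library, at 46.0%, 68.3% and 74.3%. For the other mitotic genes it was 31.2%, 60.6% and 67.3%. The mean log2(FPKM + 1) of S-phase members minus that of mitotic members was 0.16, 0.03 and -0.05 in NEC 1, 2 and 3 and -0.25, -0.31 and -0.26 in control 1, 2 and 3. All NEC values lay above all control values, at 0.05 ± 0.11 against -0.27 ± 0.03 (SD, n = 3 each). No test was made of this score, since the members were chosen with results of these data known.

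The difference of the class medians was 0.35 on the log2 scale. It was 0.24 without NEC 1, 0.47 without NEC 3, 0.59 over genes whose mean reached 5 FPKM, and 0.23 without the 11 tested class members that have a near copy, or a gene with overlapping exons, whose mean reached 1 FPKM. These include Fen1, Plk1 and Cdc20, which share 130, 156 and 53 exon bases with Tmem258, Gm44985 and Elovl1 on the other strand. The other genes of both phases gave a smaller gap, at 0.24, 0.09 and 0.12 in NEC 1, 2 and 3 and 0.04, 0.01 and 0.02 in control, with all NEC values above all controls.

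**Figure D4:**
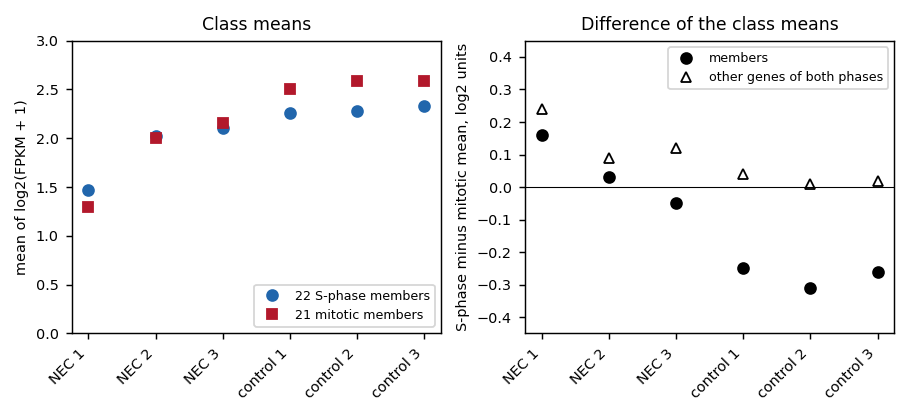
Left, mean log2(FPKM + 1) of the 22 tested S-phase and 21 mitotic members in each library. Right, S-phase minus mitotic mean in log2 units for the members and for the other genes of both phases, at -0.31 to -0.25 in control and -0.05 to 0.16 in NEC for the members.

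Set against the promoter letters shown above, 9 of the 14 mitotic members with CHR letters fell (median log2 change -0.88) and none of the 3 without them, Mybl2, Ccnb1 and Cenpe, was called (median -0.31). In those 3 genes the limma unadjusted p was 0.539, 0.0511 and 0.0507. Among S-phase members with E2F letters, 2 of 9 tested fell and E2f2 rose (median -0.59), and of those without, 4 of 11 fell (median -0.34). Among S-phase members CHR letters went the other way: none of the 5 with them fell and E2f2 rose (median -0.23), while 6 of 15 tested without them fell (median -0.44). Of those 5, Mcm7 and Cdc45 were lower at an unadjusted limma p of 0.0246 and 0.0270. Over all tested genes 30.6% were called lower and 7.69% higher, so the S-phase counts of 2 of 9, 4 of 11 and 6 of 15 lie near the share of all genes. These are counts of few genes and were not tested.

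**Figure D5:**
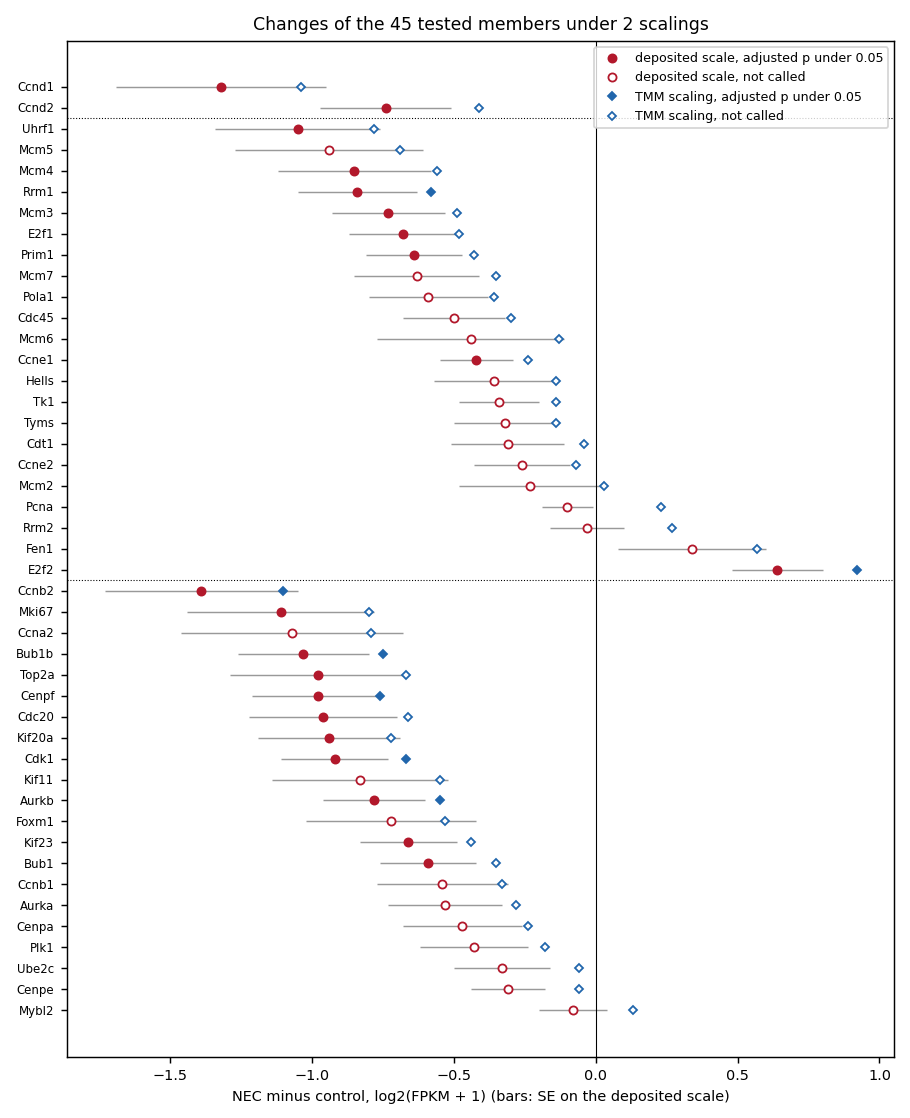
Log2 change (NEC minus control, horizontal axis) of the 45 tested members on the deposited scale, with SE bars, and under TMM scaling. TMM moves the points to the right, 6 of the 20 lower calls remain, and Mcm2, Pcna, Rrm2 and Mybl2 move from below 0 to above it.

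Genes of the same processes outside the 48 were counted in the same way. Of 43 other S-phase genes 34 were tested and 16 fell (47.1%, beside 30.6% of all tested genes). Of the 34 log2 changes 33 were negative, with a median of -0.48, beside -0.26 over all tested genes. The 4 with the smallest p were Cdca7, a partner of HELLS (log2 change -1.13, limma adjusted p = 0.0143), the polymerase delta subunit Pold2 (-1.04), the clamp loader subunit Rfc4 (-0.63) and the GINS subunit Gins4 (-0.62). Gins4 was at 5.12, 7.10 and 7.63 FPKM in NEC and 10.8, 11.3 and 9.74 FPKM in control, levels above those of Gins1 and Gins2.

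Of 49 other mitotic genes 46 were tested and 29 fell (63%, beside 30.6% of all tested genes). The median log2 change was -0.60, beside -0.26, and all 46 were negative. The 4 with the smallest p were Ckap2, which binds spindle microtubules (-1.09, limma adjusted p = 0.0161), Nusap1, another spindle-binding protein (-0.76), the checkpoint kinase Ttk (-0.92) and Prc1, which bundles the central spindle (-0.62). Without control 1 or control 2 neither list held a call, and without control 3 there were 1 S-phase and 2 mitotic calls, while 16 to 17 and 27 to 30 genes had an unadjusted p under 0.05 in limma. Under TMM scaling 4 S-phase (11.8%) and 11 mitotic genes (23.9%) were called lower, beside 14.2% of all tested genes. Without NEC 2 these numbers were 3 (8.82%) and 15 (32.6%), beside 18.5%.

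The list of inhibitors and repressors of the cycle was mixed, with 4 of 21 tested genes lower (19.0%, beside 30.6% of all tested genes) and 3 higher (14.3%, beside 7.69%). Cdkn1a, which encodes the kinase inhibitor p21, was at 12.2, 13.3 and 10.9 FPKM in NEC and 6.64, 7.59 and 7.94 FPKM in control. Rb1, which encodes the E2F-binding retinoblastoma protein, was at 13.3, 15.1 and 15.2 FPKM in NEC and 9.51, 10.7 and 9.52 FPKM in control. Both rose in every NEC library, by 0.65 (SE 0.11, limma adjusted p = 0.0103) and 0.51 (SE 0.10, limma adjusted p = 0.0130) on the log2 scale. Cdkn2c, an inhibitor of the D-cyclin kinases, was at 0.439, 2.28 and 2.48 FPKM in NEC and 5.89, 5.76 and 5.59 FPKM in control. It fell by 1.41 (SE 0.33, limma adjusted p = 0.0208), and E2f5, an E2F that represses with RB relatives, fell by 0.49 (SE 0.12, limma adjusted p = 0.0219).

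Of the listed G1 kinases, their partners and activators, 2 of 16 tested genes fell (12.5%), below the 30.6% of all tested genes. The share depends on the list, which leaves out the members Ccnd1 and Ccnd2, both lower. It also holds the DREAM complex genes Lin37, Lin52 and Lin54, which were not called. Cdk6, a kinase of the D-type cyclins (chromosome 5, 3341485 to 3531008), was at 2.80, 3.54 and 3.75 FPKM in NEC and 7.54, 7.02 and 7.11 FPKM in control, a log2 change of -0.92 (SE 0.12, limma adjusted p = 0.00519). Ccnd3, the remaining D-type cyclin gene, fell from 2.94 ± 0.264 to 1.73 ± 0.183 FPKM (SD, n = 3 each; log2 change -0.53, limma adjusted p = 0.0153). Cdk4 was at 73.3% of control (-0.43, limma adjusted p = 0.0550), and Cdk7, which activates other cell cycle kinases, at 65.4% (-0.55, limma adjusted p = 0.0502).

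Markers of cells that hold or neighbour the dividing compartment were lower in the same libraries. All 7 crypt stem cell markers fell, beside 30.6% of all tested genes. Their sum was 15.7, 35.3 and 43.7 FPKM in NEC 1, 2 and 3 and 81.4 to 88.3 FPKM in control. All 7 fibroblast markers fell, beside the same 30.6%, with sums of 96.6, 256 and 295 FPKM in NEC and 538 to 671 FPKM in control. The 6 smooth muscle markers were not called, but summed to 141 FPKM in NEC 1, 671 and 678 FPKM in NEC 3 and 2, and 767 to 912 FPKM in control. All 7 absorptive enterocyte markers rose, beside 7.69% of all tested genes. They summed to 11900 to 14600 FPKM in NEC and 3250 to 4070 FPKM in control. NEC 1 was thus low in the cell cycle genes, stem cell markers, fibroblast markers and muscle markers alike. It was the lowest of the 6 libraries in 56% of all tested genes.

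Endothelial markers summed to 18.9 to 26.4 FPKM in NEC and 31.5 to 35.6 FPKM in control. Of them 2 of 5 were called lower (40%, beside 30.6% of all tested genes). Erythroid markers summed to 121 to 131 FPKM in NEC and 256 to 421 FPKM in control, and all 3 tested were lower. Lymphoid markers were near 0: B cell markers summed to 1.08 to 3.34 FPKM in NEC and 2.78 to 4.75 FPKM in control, T cell markers to at most 0.654 and 1.95 FPKM, and those of germinal centre and proliferating lymphoid cells to at most 0.223 and 0.476 FPKM. The summed myeloid markers overlapped between the groups, at 64.8 to 74.4 FPKM in NEC and 54.3 to 81.1 FPKM in control. Of them 1 of 5 was called lower (20%, beside 30.6% of all tested genes), Adgre1 at 39.7% of control (limma adjusted p = 0.0183). Among the other myeloid markers every NEC library lay below control for Cd68 and above it for Itgam, without a call. Of 4 pancreas markers, counted as another tissue, only Ctrb1 passed the filter, and it was called higher, beside 7.69% of all tested genes. Ctrb1 was at 10.8, 4.45 and 1.34 FPKM in NEC 1, 2 and 3 and at 0 to 0.292 FPKM in control (log2 change 2.22, limma adjusted p = 0.022). The part of these cell types in the changes of the cell cycle genes was not tested, and in bulk tissue fewer dividing cells and less RNA per cell cannot be told apart. Divided by the summed epithelium markers, 20 members were called lower (beside 30% of all tested genes), 19 of them called lower on the deposited scale too. That sum includes Krt19, which fell, and Vil1, which rose and is on the absorptive enterocyte list too.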

How the data were processed

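RNA of 3 NEC and 3 control libraries was compared. Per the labels' protocols, samples with an RNA integrity number above 7 went into paired-end TruSeq libraries. The submitters' processing notes name HISAT2, SAMtools 1.3.1, Cuffdiff and mm10. The annotation and strand setting are not given in the sources used here. No unit stands in the header of the table that the authors deposited, and its values were taken to be FPKM, which Cuffdiff gives and whose low values fall on steps of 1 fragment. Value columns starting with N were taken as NEC.

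Of 55487 identifiers, 55141 matched GENCODE M21. Genes whose mean reached 1 FPKM were tested with limma 3.58.1 (mean-variance trend, log2(FPKM + 1), group as the only term, two-sided) in R 4.3.3, with Benjamini-Hochberg adjustment over 15806 genes and a threshold of 0.05. This scale understates changes of low genes. The fit was tested on simulated data. TMM factors were unweighted, trimming 30% of log ratios and 5% of levels. Promoter windows came from RefSeq (GRCm38.p6), and near copies from blastn of GENCODE transcripts. Figures used matplotlib 3.10.9.

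The members and lists were chosen with earlier results of these data known. Any member could be named, and up to 4 genes with the smallest p from each other cell cycle list. Alternatives were pseudocounts of 0.1 and 0.01, other filters and scalings, no trend, sample weights, the replicate number as a block, division by epithelium markers, and each library left out.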

Additional observations from a re-analysis of the deposited data

How the results depend on the processing

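All settings left most log2 changes of the tested members negative, but counts of calls depended on the setting, and the cause was not tested. The filter of 5 FPKM also left fewer genes to test. On the deposited scale, lower calls were 20 members, 7 S-phase, 11 mitotic, 16 other S-phase genes, 29 other mitotic genes, 4 inhibitors and 2 G1 kinases and activators. In that order they were 8, 2, 6, 7, 15 and 2 (inhibitors) without a filter, beside 15.3% of all tested genes. Over genes of at least 5 FPKM, which leaves 16 members, they were 7, 1, 4, 3, 4, 2 and 1, beside 25.1%. As a share of the genes left, that was 43.8% of members, beside 44.4% on the deposited scale. It was 14.3% of 7 S-phase and 57.1% of 7 mitotic members, and 60% of 5 other S-phase and 66.7% of 6 other mitotic genes. After TMM scaling they were 6, 1, 5, 4, 11, 1 and 1, beside 14.2%. After quantile normalization they were 11, 2, 7, 4, 5, 2 and 1, beside 15.1%. There the other S-phase (11.8%) and other mitotic genes (10.9%) were called lower less often than all tested genes. Sample weights gave 8 inhibitors and 7 G1 kinases, beside 37.5% of all tested genes called lower. Pseudocounts of 0.1 and 0.01 gave 4 and 4 S-phase members and 19 and 16 other mitotic genes, beside 27.7% and 26.9% of all tested genes.

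With each library left out in turn, the lower calls ranged from 0 to 26 members, 0 to 10 S-phase, 0 to 14 mitotic, 0 to 20 other S-phase, 0 to 34 other mitotic, 0 to 6 inhibitor and 1 to 5 G1 kinase genes. The share of all tested genes called lower then ranged from 6.35% to 33.5%. Members called higher ranged from 0 to 1 and inhibitors called higher from 1 to 3. Per epithelium marker, members called higher numbered 0 and inhibitors 1. The difference of the class medians was 0.59 over genes of at least 5 FPKM, 0.23 without members sharing reads (chosen after seeing the data), and 0.24 to 0.47 with a library left out.

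Signs turned positive, with no call, under quantile normalization for Ccne2 (0.13), Cdt1 (0.00), Mcm2 (0.07), Rrm2 (0.23), Tyms (0.07), Tk1 (0.04), Hells (0.00), Mybl2 (0.30) and Cenpe (0.04), and under TMM scaling for Mcm2 (0.03), Pcna (0.23), Rrm2 (0.27) and Mybl2 (0.13). Rrm2 was also positive under a protein-coding scaling chosen after seeing the data (0.05), without NEC 2 (0.06) and without control 1 (0.03), and ranged from -0.13 to 0.06 with a library left out. Mcm2 was positive without NEC 1 (0.06) and ranged from -0.44 to 0.06.

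Same-numbered NEC and control libraries did not deviate together (r across genes of -0.05, -0.01 and -0.07), so no pairing by number was seen. All combinations of numbers had r between -0.07 and 0.08. Whether the numbers mark anything shared is not known from the labels. With the replicate number as a block, 19 members (6 S-phase, 11 mitotic), 8 other S-phase genes and 20 other mitotic genes were called lower. Of all tested genes 20.4% were called lower in that fit. Depth of 15.2 to 18.7 M fragments is an estimate, and Cdc6, Gins1 and Gins2 were too low to test.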

Other observations

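Genes named here were chosen after their values were seen. Tob1, an antiproliferative gene, rose from 26.4 ± 0.359 FPKM in control to 32.0 ± 1.51 FPKM in NEC (SD, n = 3 each; log2 change 0.27, SE 0.08, limma adjusted p = 0.0417, Benjamini-Hochberg). The kinase inhibitor genes Cdkn1c and Cdkn2d fell, by 0.54 (limma adjusted p = 0.0395) and 0.42 (limma adjusted p = 0.0334) on the log2 scale. Dnmt1, the maintenance methyltransferase that UHRF1 guides, was at 3.90, 5.79 and 6.92 FPKM in NEC and 7.97, 9.13 and 8.84 FPKM in control and fell by 0.59 (SE 0.18, limma adjusted p = 0.0437). E2f3, the remaining activator E2F, was at 10.3, 6.33 and 4.79 FPKM in NEC and 5.72, 4.98 and 5.80 FPKM in control, so NEC 1 was the highest of the 6 libraries, and it was not called (log2 change 0.27, limma adjusted p = 0.391).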
